A study of Danio rerio with 8 samples.

Results

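The 10 genes described here are *mitfa* and 9 genes that work with it or below it in melanophores, the black pigment cells of zebrafish: *kita*, *tyr*, *dct*, *tyrp1a*, *tyrp1b*, *pmela*, *oca2*, *slc24a5* and *slc45a2*. They were taken by symbol from a table of 32057 genes, and all 10 were found and passed the filter on low counts. RNA was sequenced from 8 clutches of whole embryos at 2 days post-fertilisation (dpf), with 1 library of pooled siblings per clutch and a different pair of parents for each clutch. The gene *fmr1*, which encodes Fragile X mental retardation protein, was wild type in 4 clutches, named A, D, G and L, and carried the hu2787 allele on both chromosomes in the other 4, named S2, S4, S5 and S8. Mutant clutches came from homozygous parents, so the embryos held no *fmr1* function supplied from a wild type mother. The methods of the study state that the w2 allele of *mitfa* (*nacre*) was found afterwards in the imported stock, that it was present in some of the clutches examined, and that no parent of these 8 clutches was homozygous for it. From a later check, the methods add that carrying this allele had no great effect on the study's transcriptome results. Which clutches carried it is not given in the sources used here, so the clutches are described 1 by 1 and were not grouped by this allele.

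Melanophores arise from the neural crest, and mitfa is the transcription factor that commits crest cells to this fate and turns on the genes of melanin synthesis. Melanin is made from tyrosine by the enzyme tyr and by dct and the tyrp1 enzymes, inside a melanosome whose fibrous matrix is built from pmel, while oca2, slc24a5 and slc45a2 are membrane transporters that set the ion and pH conditions within it. The retinal pigment epithelium of the eye uses the same synthesis genes but does not need mitfa, so embryos homozygous for w2 lack body melanophores and keep black eyes. By Mendelian expectation 25% of the offspring of 2 heterozygous parents would be homozygous, and a gene made only in the other embryos would then stand at 75% of its level, which is −0.42 on the log2 scale. A gene that the eye also transcribes would fall by less than this.

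Total counts lay between 29296538 and 33205738 per library. Levels are given as CPM, the count of a gene relative to the library total after scaling by the TMM method of edgeR, whose factors ranged from 0.891 to 1.12. The gene that defines the genotypes followed the labels, with *fmr1* at 19.5 to 23.4 CPM in the mutant clutches and 47.1 to 54.2 CPM in the wild type clutches. The 10 melanophore genes were well covered, since the lowest count of any of them in any library was 102 and the highest was 16108. In whole embryos, fewer pigment cells and less RNA per pigment cell cannot be told apart.

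Per kilobase of exon, *tyrp1b* had the highest mean level over the 8 clutches (238 CPM per kilobase), followed by *pmela* (97.7), *dct* (96.0) and *tyrp1a* (41.5). Lower levels were found for *slc45a2* (26.0 CPM per kilobase), *tyr* (18.1), *oca2* (5.18), *slc24a5* (4.63), *mitfa* (4.41) and *kita* (1.84). The order of *tyrp1b* over *pmela*, *dct* over *tyrp1a*, *tyrp1a* over *slc45a2*, *tyr* over *oca2*, and *mitfa* over *kita* held in 8 of 8 clutches. *slc45a2* lay above *tyr* in 7 of 8 clutches. By contrast *pmela* lay above *dct* in 4 of 8 clutches, *oca2* above *slc24a5* in 5 of 8 and *slc24a5* above *mitfa* in 4 of 8, so these neighbours were not separated.

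**Figure D1:**
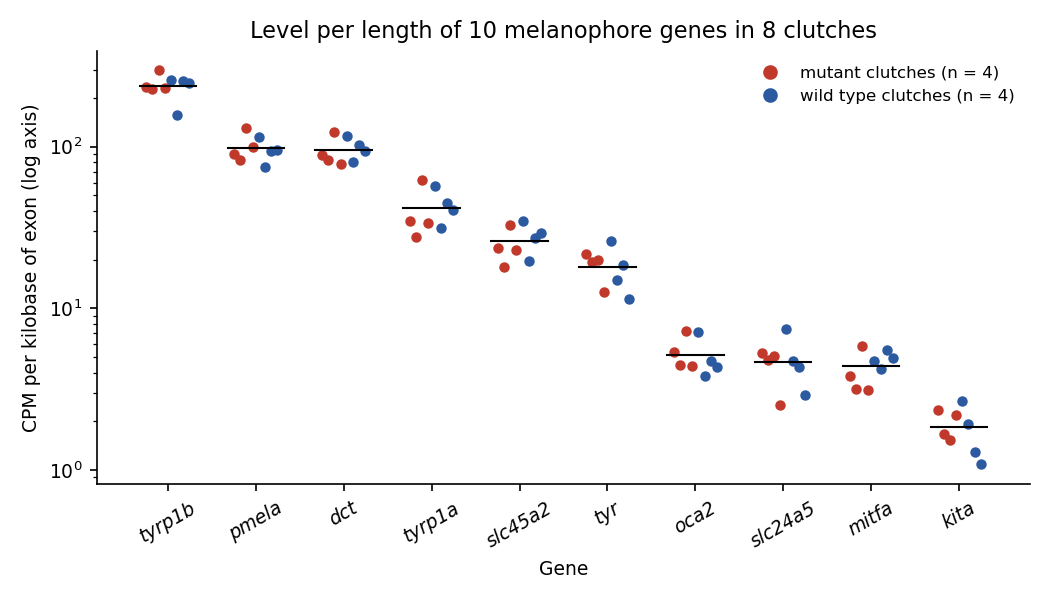
Level of each gene in each clutch, in CPM per kilobase of exon on a log axis, with red points for the 4 mutant clutches, blue points for the 4 wild type clutches and a line at the mean of all 8. The mean levels ran from 238 for *tyrp1b* to 1.84 for *kita*, and the ranges of the red and blue points overlapped in every gene.

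*mitfa*, the regulator itself, lies on chromosome 6 of GRCz11 (43390387 to 43433277, plus strand, ENSDARG00000003732). It stood at 8.76 CPM in S2, 7.28 in S4, 13.3 in S5 and 7.07 in S8 among the mutant clutches, and at 10.8 CPM in A, 9.56 in D, 12.6 in G and 11.2 in L among the wild type clutches. The highest level and the 3 lowest levels were all in mutant clutches, and the wild type levels lay between them. The 4 wild type clutches spread less than the mutant clutches, at 11.01 ± 1.24 CPM against 9.10 ± 2.89 CPM (SD, n = 4 each).

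*kita* encodes the receptor tyrosine kinase through which kit ligand guides the migration and survival of melanophores, and it lies on chromosome 20 (22335511 to 22378401, minus strand). Its levels were 8.39 CPM in S2, 5.91 in S4, 5.48 in S5 and 7.81 in S8, and 9.54 CPM in A, 6.88 in D, 4.59 in G and 3.85 in L. Wild type clutches held both its highest level and its lowest, and its order of clutches was not that of *mitfa*. S5, the clutch with the highest *mitfa*, was the third lowest for *kita*.

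Among the enzymes, *tyr* encodes tyrosinase, which carries out the rate-limiting step of melanin synthesis (chromosome 15, 43799258 to 43818697, plus strand). It stood at 42.3 CPM in S2, 37.8 in S4, 39.0 in S5 and 24.5 in S8, and at 51.0 CPM in A, 29.2 in D, 36.0 in G and 22.2 in L. The 2 lowest clutches, L and S8, came from different genotypes, and the ranges of the genotypes overlapped.

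*dct* encodes dopachrome tautomerase, which acts after tyrosinase (chromosome 9, 53327332 to 53352682, plus strand). Its levels were 193 CPM in S2, 182 in S4, 269.7 in S5 and 169.5 in S8, and 255 CPM in A, 175 in D, 224 in G and 206 in L. S5 and A were highest, and S8 and D lowest, so that each genotype held 1 of the 2 highest and 1 of the 2 lowest clutches. Its highest level was 1.59 times its lowest, which was the narrowest range of the 10 genes.

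The genome duplication of teleosts left zebrafish with a pair of tyrosinase-related protein 1 genes. *tyrp1a* (chromosome 7, 74084203 to 74090168, minus strand) stood at 66.7 CPM in S2, 52.9 in S4, 119 in S5 and 64.8 in S8, and at 110.3 CPM in A, 60.9 in D, 86.6 in G and 78.5 in L. *tyrp1b* (chromosome 1, 19332837 to 19346048, plus strand) stood at 463 CPM in S2, 447 in S4, 583 in S5 and 455 in S8, and at 507 CPM in A, 309 in D, 501 in G and 489 in L. Both were highest in S5, but *tyrp1a* was lowest in S4 and *tyrp1b* in D. For *tyrp1b*, 6 of the 8 clutches lay between 447 and 507 CPM, and S5 and D lay apart from the others of their genotype.

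*pmela* encodes the protein that forms the fibrils on which melanin is laid down (chromosome 11, 3254252 to 3272020, plus strand). Its levels were 311 CPM in S2, 284 in S4, 447 in S5 and 339.6 in S8, and 394 CPM in A, 257 in D, 323 in G and 329 in L. S5 and A were again the highest and D was the lowest, with the genotypes overlapping.

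The transporters differed among themselves. *oca2*, a melanosomal anion channel whose human gene is mutated in oculocutaneous albinism (chromosome 6, 37894220 to 38054851, plus strand), stood at 13.8 CPM in S2, 11.3 in S4, 18.3 in S5 and 11.2 in S8, and at 18.2 CPM in A, 9.79 in D, 11.97 in G and 11.1 in L. *slc45a2* (chromosome 21, 19445942 to 19484289, plus strand), a transporter that keeps the melanosome from turning acid, stood at 41.2 CPM in S2, 31.6 in S4, 57.1 in S5 and 39.8 in S8, and at 60.5 CPM in A, 34.3 in D, 47.8 in G and 51.3 in L. S5 and A were the 2 highest clutches for both genes. *slc24a5*, the cation exchanger mutated in the *golden* line of zebrafish (chromosome 18, 5213338 to 5227420, plus strand), stood at 10.7 CPM in S2, 9.52 in S4, 10.1 in S5 and 5.08 in S8, and at 14.9 CPM in A, 9.5 in D, 8.62 in G and 5.85 in L. Its low clutches were S8 and L, as for *tyr*, and its highest level was 2.93 times its lowest, the widest range of the 10 genes. The median gene at 1 CPM or more ranged 1.70-fold over the 8 clutches.

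**Figure D2:**
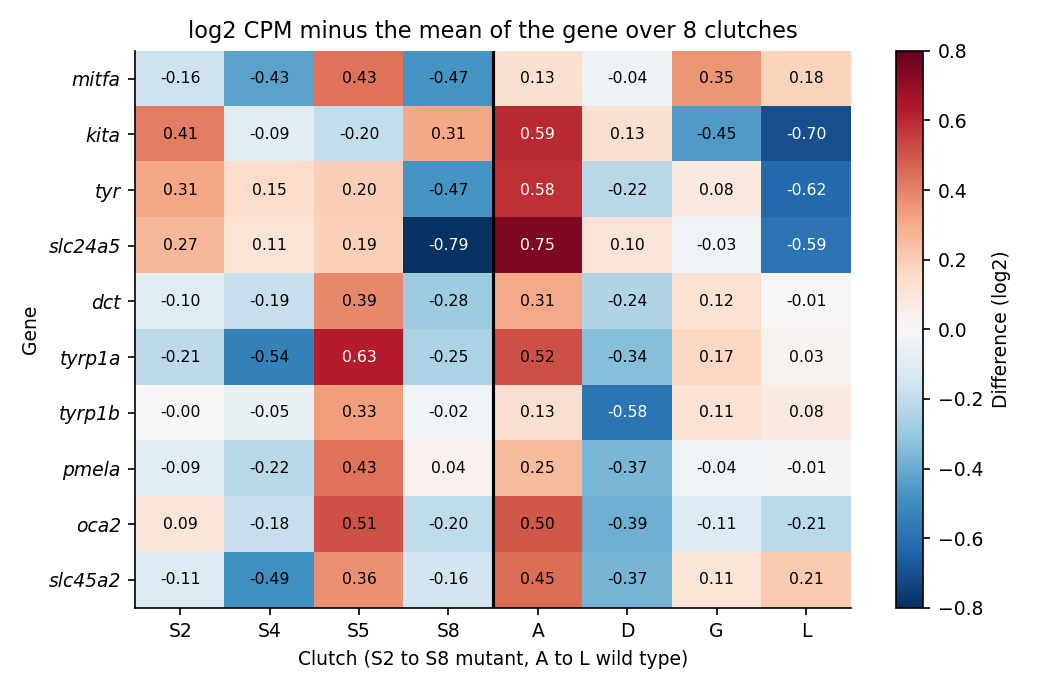
Difference of each gene (rows) from its own mean over 8 clutches, in log2 CPM, with mutant clutches S2 to S8 left of the line and wild type clutches A to L right of it. S5 and A are red in the rows from *tyr* to *slc45a2*, while S8 and L are dark blue for *tyr* and *slc24a5* and D for *tyrp1b*.

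Whether the melanin synthesis genes fell together in some clutches was then described from 8 genes (*tyr*, *dct*, *tyrp1a*, *tyrp1b*, *pmela*, *oca2*, *slc24a5* and *slc45a2*), as the mean difference of each clutch from the mean of all clutches. The level was lowest in D (−0.30 on the log2 scale, 0.811 of the mean clutch), where 8 of 8 genes lay below their own median over clutches. S8 followed at −0.27 (0.830 of the mean clutch, 7 of 8 genes below the median) and S4 at −0.18 (0.884, 6 of 8). In D, *slc24a5* lay only just below its median and was above its own mean, by 0.104 on the log2 scale. It was thus not clearly low in that clutch. In S8, *slc24a5* (−0.79) and *tyr* (−0.47) lay farthest below their means, while *pmela* (0.04) and *tyrp1b* (−0.02) lay near theirs. In S4, *tyr* (0.15) and *slc24a5* (0.11) lay above their means. Low levels of most of these genes together were thus seen in clutches of both genotypes, but which clutches were lowest depended on the scaling. With scaling by total counts in place of TMM, L (−0.28) lay lowest, before D (−0.24) and S8 (−0.21), and S4 stood at −0.03. D was the lowest clutch in 10 of 13 alternatives, and S8 in the 2 that left out *pmela* or *tyrp1b*.

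At the other end, A stood at 0.43 (1.35 times the mean clutch) and S5 at 0.38 (1.301 times), each with 0 of 8 genes below the median. The remaining clutches had mean differences of 0.02 in S2, 0.05 in G and −0.14 in L. The value of L joins unlike genes. *tyr* (−0.62), *slc24a5* (−0.59) and *oca2* (−0.21) were low there, while *slc45a2* (0.21) and *tyrp1b* (0.08) lay above their means. S5 had the highest level of 6 of the 10 genes and A of the other 4, whereas the lowest levels were shared among D (3 genes), S8 (3), S4 (2) and L (2). No single clutch was therefore the lowest throughout. The summed CPM of the 8 genes ranged from 884 in D to 1544 in S5, with 1055 to 1239 in 5 clutches and 1410 in A.

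*mitfa* was not uniformly low where the synthesis genes were low. It was at its lowest in S8 and S4 (−0.47 and −0.43 on the log2 scale from its mean), but in D it stood at −0.04. In A, the clutch with the highest synthesis genes, *mitfa* stood at 0.13, and in G, where they stood at 0.05, *mitfa* was at 0.35.

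The genes were tied to each other to different degrees. Over the 28 pairs of the 8 synthesis genes, Pearson's r across clutches was positive in 28, from 0.07 to 0.95 with a median of 0.73. Among *dct*, *tyrp1a*, *tyrp1b*, *pmela*, *oca2* and *slc45a2* it lay between 0.69 and 0.95 in 15 pairs (median 0.85), and after each genotype was centred on its own mean, between 0.71 and 0.97. *tyr* and *slc24a5* varied together (r = 0.93), and r between these 2 genes or *kita* and the 6 genes above ran from −0.21 to 0.72 over 18 pairs (median 0.29). This division into 6 and 3 genes was chosen after the values were seen, all values come from the same 8 libraries and share their scaling, and no test was made of it.

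Ratios of counts within a library do not depend on scaling, and were taken to *pmela* for *tyr*, *slc24a5*, *kita*, *tyrp1b* and *mitfa*. There were 13.6 *tyr* counts per 100 *pmela* counts in S2, 13.3 in S4, 12.96 in A, 11.3 in D and 11.1 in G, but 8.72 in S5, 7.21 in S8 and 6.73 in L. For *slc24a5* the ratio lay between 2.25 and 3.78 per 100 *pmela* counts in 6 clutches and was 1.496 in S8 and 1.78 in L. *kita* had another order, with 2.30 counts per 100 *pmela* counts in S8 but 1.17 in L and 1.23 in S5, while *tyrp1b* kept closer to *pmela*, with 120 to 157 counts per 100. For *mitfa* the ratio was 2.61 ± 0.39 in mutant and 3.43 ± 0.51 in wild type clutches (SD, n = 4 each). Its ranges overlapped, at 2.08 to 2.97 in mutant clutches, with S5 at 2.97, and 2.73 to 3.89 in wild type clutches. This difference was not tested. L and S8, 1 clutch of each genotype, thus had little *tyr* and *slc24a5* beside their *pmela*. Both carry replicate number 4 in the labels. In each genotype the *tyr* and *slc24a5* ratios fell in the order of these numbers, from 1 (S2 and A) to 4. What the numbers stand for is not given, and this order was not tested.

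Between the genotypes, 0 of the 10 genes had an adjusted p (FDR) under 0.05 in edgeR's quasi-likelihood test, where 0.0127% of the 23567 genes tested did (2 genes higher in mutant clutches, 0.00849%, and 1 lower, 0.00424%). At an unadjusted p under 0.05 the count was again 0 of 10, beside 9.41% of all genes. In 0 of 10 genes were the ranges of the genotypes apart, which was so for 4.28% of all genes. The fitted change was above 0 in 5 genes and below 0 in 5, with a median of −0.01 on the log2 scale beside 0.02 over all genes tested.

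*mitfa* had the largest fitted difference of the 10, with a log2 fold change of −0.28 (SE 0.209, 95% interval −0.74 to 0.18) in mutant over wild type clutches and an adjusted p of 0.67 by the quasi-likelihood test. *tyr* differed by 0.05 (interval −0.49 to 0.59), from 35.9 ± 7.83 CPM in mutant to 34.6 ± 12.3 CPM in wild type clutches (SD, n = 4 each). *dct*, at 203 ± 45.2 and 215 ± 33.7 CPM (SD, n = 4 each), differed by −0.08 (interval −0.46 to 0.30). For these 3 genes the SD of the mutant clutches was larger than the difference between the genotype means.

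*tyrp1b* stood at 487 ± 64.5 CPM in mutant and 452 ± 95.4 CPM in wild type clutches (SD, n = 4 each), a log2 fold change of 0.11 (interval −0.28 to 0.50). *pmela* gave 0.08 (interval −0.30 to 0.47) and *tyrp1a* −0.15 (interval −0.70 to 0.41). Among the transporters and the receptor, *slc45a2* gave −0.19 (interval −0.64 to 0.25), *slc24a5* −0.14 (−0.79 to 0.52), *oca2* 0.10 (−0.40 to 0.59) and *kita* 0.15 (−0.47 to 0.77). Every interval held 0 and, in at least 1 direction, reached as far from 0 as the −0.46 of *dct* or farther. In that direction, a genotype difference of that size could not be told from none with 4 clutches a side. In the other direction some intervals ended nearer 0, such as at 0.18 for *mitfa* and −0.28 for *tyrp1b*.

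The mean level of the 8 synthesis genes was −0.01 ± 0.287 in the mutant and 0.01 ± 0.317 in the wild type clutches on the log2 scale (SD, n = 4 each). Their summed CPM was 1212 ± 224 and 1182 ± 219 (SD, n = 4 each). Each genotype thus held 1 clutch well above the mean and at least 1 clutch well below it. Within genotypes, the SD of log2 CPM was 0.266 for *dct* to 0.522 for *slc24a5*, and in 10 of 10 genes it exceeded the 0.252 of the median gene at 1 CPM or more. Some lay close to that median, as 53.2% of genes at 1 CPM or more had a smaller SD than *dct*, 53.9% than *pmela* and 56.0% than *tyrp1b*. For *slc24a5* this share was 87.5%. The genes compared reach down to a mean of 1 CPM and were not matched to these genes for level.

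The fitted changes depended on S5 among the mutant clutches and on A among the wild type clutches. Their median over the 10 genes was −0.14 without S5 and 0.16 without A. Without S5, *mitfa* had a log2 fold change of −0.51 (unadjusted p = 0.00796, adjusted p = 0.123 by edgeR) and *tyrp1a* of −0.45 (unadjusted p = 0.0402, adjusted p = 0.233). These 2 of 10 genes had an unadjusted p under 0.05 in that fit, beside 19.5% of all genes tested, and 0 of 10 passed the FDR.

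**Figure D3:**
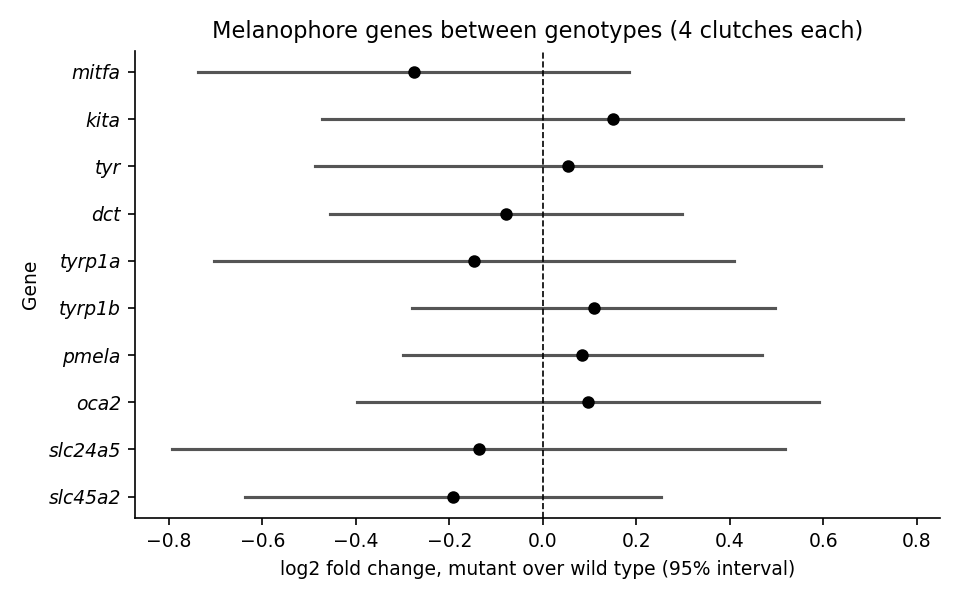
Fitted log2 fold change of each gene (mutant over wild type, 4 clutches each) as a point with its 95% interval as a bar, and a dashed line at 0. The points lie between −0.28 for *mitfa* and 0.15 for *kita*, and all 10 bars cross 0.

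Across the 8 clutches, the level of *mitfa* was set against that of every other gene tested, with exact permutation over all pairings of clutches and adjustment over 23566 genes. At an adjusted p under 0.05 the count was 0 of the 9 other melanophore genes and 0 (0%) of all genes. At an unadjusted p under 0.05 it was 3 of 9, all with positive r, beside 15.0% of all genes in either direction and 9.83% with positive r. This count was 0 with scaling by total counts, 0 when S5 was left out, 1 when S4 was left out, 2 without S2 or L, and 4 without D. The shares over all genes given above are for all 8 clutches under TMM scaling. They are not given for these other settings, so these counts have no such share beside them.

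*dct* (r = 0.82, exact permutation p = 0.0152, Spearman's rho = 0.86, p = 0.0107, adjusted p = 0.251) and *tyrp1a* (r = 0.82, exact permutation p = 0.0154, rho = 0.81, p = 0.0218, adjusted p = 0.252) were closest to *mitfa*. *slc45a2* followed (r = 0.76, exact permutation p = 0.0335, rho = 0.71, p = 0.0576, adjusted p = 0.308). Without S8 and S4, the clutches farthest from the median of *mitfa*, r was 0.75 for *dct*, 0.76 for *tyrp1a* and 0.66 for *slc45a2*. After centring on each genotype's mean it was 0.85, 0.83 and 0.74. Of all genes, 4.07% had an r with *mitfa* at least as high as that of *dct*.

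For the remaining genes r with *mitfa* was 0.53 for *pmela*, 0.48 for *oca2*, 0.44 for *tyrp1b*, 0.29 for *slc24a5*, 0.20 for *tyr* and −0.45 for *kita*, with exact permutation p from 0.180 for *pmela* to 0.628 for *tyr*. D weighed on *tyrp1b*, whose r was 0.87 without that clutch. Total-count scaling in place of TMM gave lower values, at 0.62 for *dct*, 0.67 for *tyrp1a*, 0.54 for *slc45a2*, 0.08 for *pmela* and 0.03 for *tyrp1b*.

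**Figure D4:**
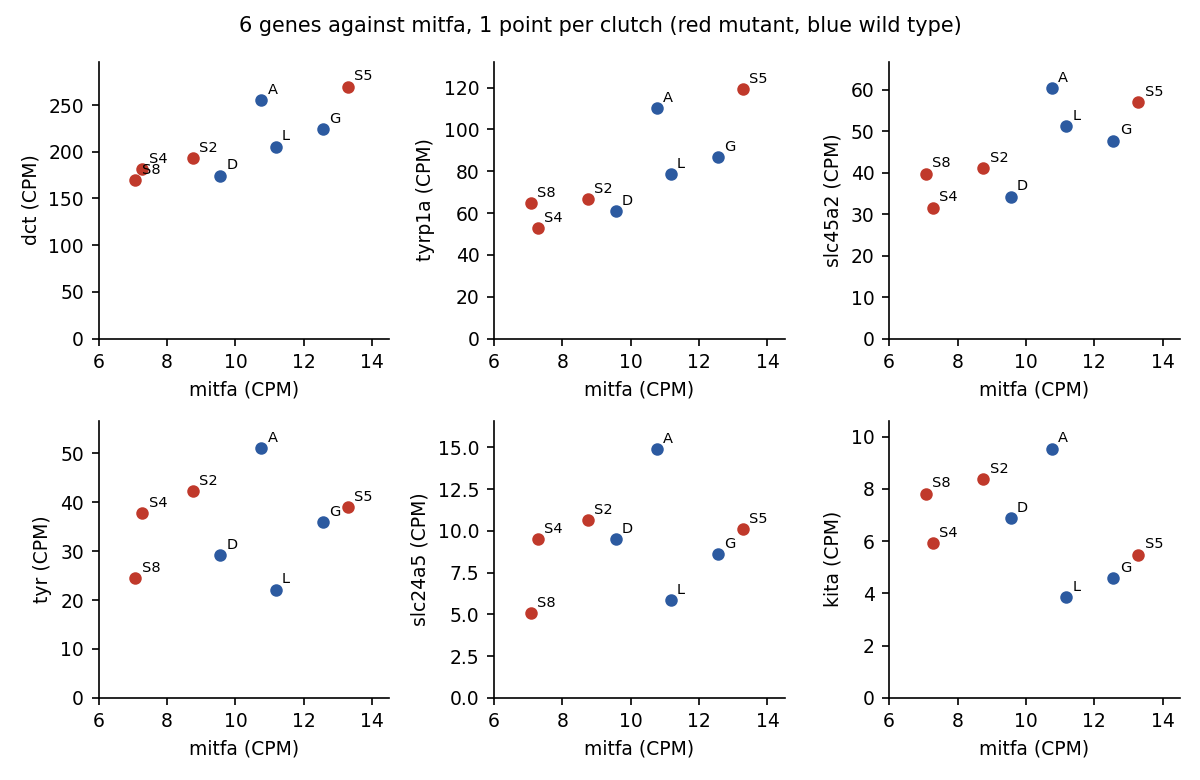
Level of 6 genes against that of *mitfa*, both in CPM, 1 named point per clutch (red mutant, blue wild type). *dct*, *tyrp1a* and *slc45a2* lie closest to a line with *mitfa* (r of 0.82, 0.82 and 0.76), whereas *tyr*, *slc24a5* and *kita* are scattered (r of 0.20, 0.29 and −0.45).

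The genes whose levels over the clutches were most like the mean of the 8 synthesis genes, of 18272 others at 1 CPM or more, were led by *slc30a1b*, a zinc transporter gene. Its r was 0.93, and it was the only gene above 0.9 (0.00547% of the genes compared). It was followed by *hdac3* (r = 0.90), *mettl23* (0.89), *HOOK2* (0.89), *znfl2a* (0.88), ENSDARG00000110291 (0.87), *tomm22* (0.86), *ccdc97* (0.86), *vmo1b* (0.85) and *urod* (0.85). Without A and S5, the 2 highest clutches, r stayed at 0.89 for *slc30a1b*, 0.88 for *HOOK2* and 0.87 for ENSDARG00000110291, and was 0.71 for *vmo1b*. The other genes named fell further, to 0.59 for *mettl23*, 0.41 for *ccdc97*, 0.38 for *hdac3*, 0.36 for *tomm22*, 0.26 for *znfl2a* and 0.23 for *urod*. These likenesses are descriptions over 8 clutches. Each melanophore gene set against the mean of the other synthesis genes gave r of 0.95 for *oca2*, 0.93 for *dct*, 0.85 for *tyrp1a*, 0.79 for *pmela*, 0.77 for *slc45a2*, 0.64 for *tyrp1b*, *tyr* and *mitfa*, 0.53 for *slc24a5* and 0.19 for *kita*.

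Of 26 other melanophore and melanosome genes tested, 0 passed the FDR between genotypes. At an unadjusted p under 0.05 there was 1 higher in mutant clutches, beside 4.22% of all genes, and 1 lower, beside 5.19%. These were *trpm1a*, a cation channel gene of melanophores and retina (log2 fold change 1.01), and *rab32a*, a small GTPase gene of melanosome biogenesis (−0.32), both named after their values were seen. The median of the list was 0.08. Its *mc1r*, the melanocortin receptor gene, and *gpr143*, a melanosomal receptor gene, followed the synthesis genes over clutches with r of 0.80 and 0.74, but the median r of the list was −0.01 beside 0.02 over all genes.

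The second *pmel* gene, *pmelb*, which the eye expresses, stood at 91.5 ± 7.15 CPM in mutant and 83.8 ± 19.8 CPM in wild type clutches (SD, n = 4 each, log2 fold change 0.13) and had r of −0.15 with the synthesis genes. *mitfb*, the second *mitf* gene, was low at 0.31 ± 0.23 and 0.28 ± 0.11 CPM (SD, n = 4 each). The gene taken as *sox10*, which turns on *mitfa* in the neural crest, shared only 1 neighbouring symbol between the assemblies, so its identity is less sure, and it stood at 33.4 ± 2.81 and 31.5 ± 4.62 CPM (SD, n = 4 each, log2 fold change 0.09). None of the 3 passed the test.

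Of 22 genes of the complexes that build melanosomes and 14 genes of the vacuolar ATPase, 0 passed the FDR, and 1 (*hps1*, 0.27) and 0 had an unadjusted p under 0.05, beside 9.41% of all genes. The other pigment cells and their precursors gave the same count of 0 at the FDR, in 10 iridophore, 10 xanthophore and 10 neural crest genes, with median log2 fold changes of 0.06, −0.13 and −0.04. Over clutches, their median r with the synthesis genes was −0.20, 0.43 and 0.05, beside 0.02 over all genes. It was positive in 3, 8 and 7 genes of these lists, beside 12159 of all 23567 genes. In the neural crest list *tfap2e* (−0.32) and *sox9b* (−0.48), both transcription factor genes named after their values were seen, as was *hps1*, had an unadjusted p under 0.05, which makes 2 of 10 beside 5.19% of all genes that were lower in mutant clutches.

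Markers of other cells that vary with stage moved between clutches as well. Of 13 genes of the retinal pigment epithelium, which makes melanin with the same enzymes, 0 passed the FDR and 3 had an unadjusted p under 0.05, all with higher levels in mutant clutches, beside 4.22% of all genes, and the median log2 fold change was 0.13. The 3 were *rpe65a*, and *rgra* and *ttr*, which are named after their values were seen. *ttr* was near the floor, at 0.42 ± 0.37 CPM in mutant and 0.08 ± 0.03 CPM in wild type clutches (SD, n = 4 each). Over clutches the list was mixed, with a positive r with the synthesis genes in 5 of 13 genes and a median r of −0.32. *rpe65a*, the retinoid isomerase gene of this tissue, stood at 48.7 CPM in S2, 68.0 in S4, 19.5 in S5 and 52.4 in S8, and at 15.2 CPM in A, 9.73 in D, 31.6 in G and 38.5 in L. It was low in A and S5, where the synthesis genes were high, and lowest in D, where they were lowest under TMM scaling. Another gene of the list, *rgrb*, named after its values were seen, had r of 0.65 with the synthesis genes, where *rpe65a* had −0.33. *rlbp1b*, the gene for its retinaldehyde binding protein, gave 15.2 ± 3.19 CPM in mutant and 11.6 ± 3.11 CPM in wild type clutches (SD, n = 4 each, log2 fold change 0.39). The summed CPM of the list was 288 to 324 in mutant and 253 to 324 in wild type clutches. Its largest parts were *otx2b* (means of 70.9 CPM in mutant and 88.2 in wild type clutches) and *bhlhe40* (70.7 and 66.5). The sum therefore does not show the spread of *rpe65a* given above.

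Of 5 genes of the hatching gland, a tissue that empties when the embryo hatches, 0 passed the FDR and 2 had an unadjusted p under 0.05, both lower in mutant clutches, beside 5.19% of all genes, with a median log2 fold change of −1.50 over the list. *he1.1*, a hatching enzyme gene, stood at 92.4 CPM in S2, 79.6 in S4, 248 in S5 and 47.5 in S8, and at 611 CPM in A, 306 in D, 179 in G and 238 in L. It was highest in A and, among the mutant clutches, in S5, the 2 clutches with the most synthesis gene expression, but D, with the least under TMM scaling, had the second highest level. The summed CPM of the list ranged from 69.6 to 370 in mutant and 273 to 850 in wild type clutches. Over clutches, r with the synthesis genes was positive in 5 of 5 genes of this list, beside 12159 of all 23567 genes, with a median of 0.57 beside 0.02. Of these, *he1.1*, *he1.2* and *he1.3* lie close together on chromosome 22 (14093306 to 14103633), so they are not separate observations. *he1.3* was near the floor, at 0.07 ± 0.07 CPM in mutant and 0.22 ± 0.21 CPM in wild type clutches (SD, n = 4 each). The part of developmental stage or hatching in the clutch differences of the melanophore genes was not tested here, nor was that of the w2 allele.

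**Figure D5:**
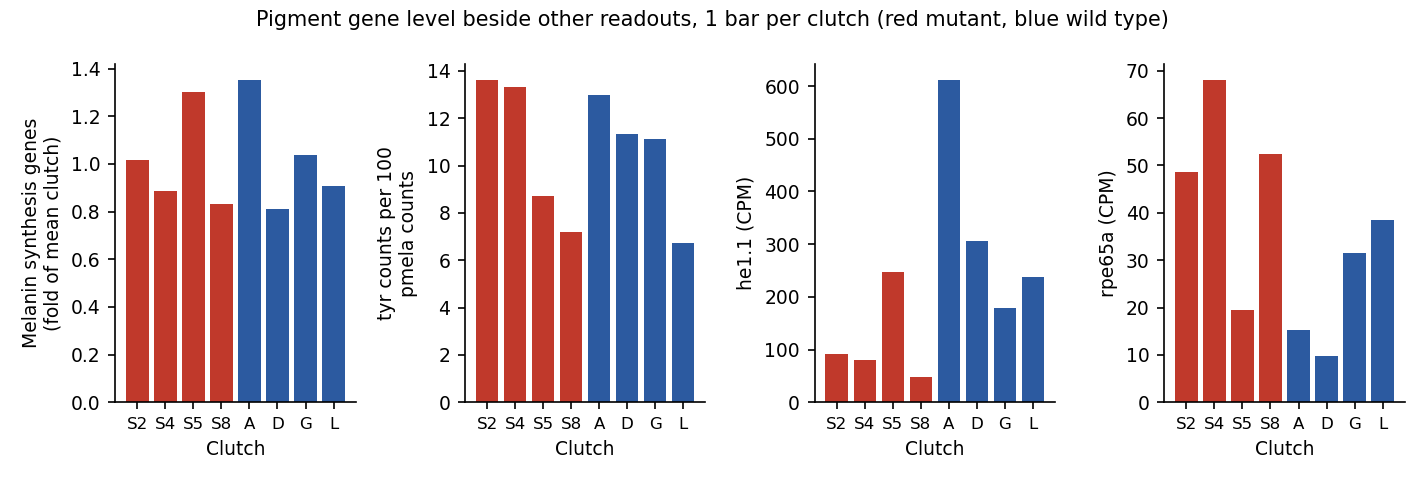
Bars for each clutch (red mutant, blue wild type) of the 8 synthesis genes as a fold of the mean clutch, *tyr* counts per 100 *pmela* counts, *he1.1* in CPM and *rpe65a* in CPM. A and S5 are highest in the first panel at 1.35 and 1.301, L and S8 lowest in the second at 6.73 and 7.21, and A highest in the third at 611 CPM.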

How the data were processed

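RNA-seq was performed on 8 clutches at 2 dpf, 4 per *fmr1* genotype as the labels give it. The authors deposited raw read counts for each gene, made with AdapterRemoval (2.2.1), STAR (2.5.3a) on GRCz11 (Ensembl release 94) and featureCounts (1.5.2, strand-specific, mapping quality of at least 10). Reads that map equally well to several genes were therefore left out, and the counts are of reads, not of independent molecules. The tests between genotypes judge a difference against the spread between clutches.

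Symbols came from a name table for 28988 of 32057 genes. For 9 of the 10 melanophore genes, that table gives the symbol of the human gene, and the gene was chosen by its chromosome in a RefSeq annotation of another assembly (GRCz12tu), from which no coordinates are given. Among the 10 genes on each side, 5 to 19 symbols were shared between the assemblies.

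The 23567 genes with over 1 count in 4 or more libraries were scaled by TMM and compared by edgeR (4.0.16, R 4.3.3), with its quasi-likelihood test and Benjamini-Hochberg adjustment over all of them. Log2 CPM used a prior count of 2. Correlations over clutches were tested by exact permutation, two-sided by the size of r, computed with numpy (2.4.6). The likelihood-ratio test, DESeq2 (1.42.0), limma-voom (limma 3.58.1), other scalings and filters, and the leaving out of each clutch were alternatives. The genes named are the 10 melanophore genes, the 10 others most like the synthesis genes over clutches, any listed gene past the FDR, and *mitfb*, *pmelb*, *rpe65a*, *rlbp1b* and *sox10*, and a few further listed genes are named where stated or as examples. Genes and lists were chosen with earlier results of these data known. Sequences were not used here.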

Additional observations from a re-analysis of the deposited data

Results flagged for a closer look

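*tyrp1b* was singled out in both genotypes because 1 clutch lay far from the other 3. Its level was 583 CPM in mutant clutch S5, with a gap to the nearest clutch that made up 0.883 of the range of the mutant clutches. In wild type clutch D it was 309 CPM, with a gap of 0.912 of the range. Both exceed the critical value of Dixon's test for 4 samples. Chance passes it in about 1 in 20 groups, and 20 groups (10 genes in 2 genotypes) were examined.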

How the results depend on the processing

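The count of genes past an FDR of 0.05 between genotypes was 3 in the quasi-likelihood fit, 31 with edgeR's likelihood-ratio test and 36 with DESeq2, and 1 to 3 when each clutch was left out in turn. Of the 10 melanophore genes, 0 passed in any of 16 alternatives. Their median log2 fold change ranged from −0.14 to 0.16 when clutches were left out. In those fits *mitfa* and *slc45a2* kept their sign, while *tyr* changed sign in 3, *dct*, *pmela*, *oca2* and *slc24a5* in 2 each, and *kita*, *tyrp1a* and *tyrp1b* in 1 each, never past the threshold. With the replicate number as a block, 0 genes passed (quasi-likelihood test, 2223 at an unadjusted p under 0.05). That fit gave a smaller SE for each of the 10 melanophore genes. Examples are *tyr* (0.127, against 0.245), *slc24a5* (0.157, against 0.297), *mitfa* (0.155, against 0.209) and *tyrp1b* (0.159, against 0.176). For *mitfa* its unadjusted p was 0.0789 and its adjusted p 0.539 by the quasi-likelihood test. For the synthesis genes, the mean levels of same-numbered clutches had the same sign. They were 0.02 in S2 and 0.43 in A, −0.18 in S4 and −0.30 in D. For the later numbers they were 0.38 in S5 and 0.05 in G, −0.27 in S8 and −0.14 in L. S2 and G were near 0, and this was not tested. Over all genes, however, same-numbered clutches did not regularly deviate together (correlations of 0.25, −0.21, −0.01 and 0.18), although S8 and L were each other's closest match across genotypes. The numbers were therefore not taken to pair clutches. Scaling by total counts moved the level of the synthesis genes to 0.21 in S5, −0.28 in L, 0.18 in S2 and −0.03 in S4, so that L lay below D (−0.24) and S8 (−0.21). Without *pmela* or *tyrp1b*, S8 (−0.31 and −0.30) lay below D (−0.29 and −0.26). Without S8, r with *mitfa* was −0.12 for *slc24a5* and −0.09 for *tyr*. With 4 clutches a side, differences within the intervals given above could not be resolved.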
